A study of Mus musculus with 4 samples.

Results

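The 10 genes described here encode the VEGF and angiopoietin signals of blood and lymph vessels, taken by symbol from the 32285 genes counted in single cells of the mouse ovary, and all 10 were measured. They comprise 4 ligands (Vegfa, Vegfc, Angpt1, Angpt2) and 6 receptors or coreceptors (Flt1, Kdr, Flt4, Nrp1, Tek, Tie1). Prepubertal mice were treated from postnatal day 25, and 1 library was made per group from cells pooled over 5 animals, with 1 ovary from each. Control mice were given PBS or saline. The doxorubicin group received 2 weekly doses of 3 mg/kg of this DNA-damaging chemotherapy drug, the AMH group received 0.75 mg/kg of recombinant human anti-Müllerian hormone, and the doxorubicin+AMH group received both. Tissue was collected 4 hours after the final drug dose. The strain is not given in the labels. With 1 pooled library per group there is no measure of the spread between animals, no test of a treatment was possible, and each interval below covers counting error only.

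VEGFA, made by many parenchymal cells, acts on the endothelial tyrosine kinase receptors FLT1 and KDR, while VEGFC acts mainly on FLT4 and drives lymphatic growth. Neuropilin 1 binds VEGFA and class 3 semaphorins as a coreceptor. Angiopoietin 1 from perivascular cells activates the endothelial receptor TEK (also called TIE2) and stabilises vessels, angiopoietin 2 can oppose or mimic it depending on context, and TIE1 modulates TEK. In the ovary, the theca of a growing follicle is vascular while the granulosa layer has no vessels of its own, and VEGFA from follicle cells is known as a main signal for that vascular bed.

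The promoters of 3 receptors that were high in blood endothelial-like cells (251 UMIs or more per 1000000 UMIs in every library) and near 0 in granulosa-like and theca-like cells (3.75 UMIs or fewer per 1000000) are shown because these genes shared that distribution. Each line gives the 250 bases before the start of the transcript in RefSeq on build GRCm38.p6, on the gene's own strand. Capitals mark a match to CAGGAA or CCGGAA on either strand, which are forms of the core bound by ETS factors, a family known for its part in endothelial genes.
Flt1, chr5:147726012-147726261, minus strand: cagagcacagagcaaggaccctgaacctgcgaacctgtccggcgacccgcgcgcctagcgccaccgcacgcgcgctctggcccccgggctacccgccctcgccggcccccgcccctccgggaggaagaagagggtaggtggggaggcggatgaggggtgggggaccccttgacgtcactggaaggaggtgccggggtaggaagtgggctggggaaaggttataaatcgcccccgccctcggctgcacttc
Kdr, chr5:75978456-75978705, minus strand: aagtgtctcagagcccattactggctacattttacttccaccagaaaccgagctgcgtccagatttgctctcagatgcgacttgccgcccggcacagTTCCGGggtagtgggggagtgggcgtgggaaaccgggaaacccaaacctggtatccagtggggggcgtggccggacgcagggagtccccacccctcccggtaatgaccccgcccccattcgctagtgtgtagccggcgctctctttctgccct
Tek, chr4:94739039-94739288, plus strand: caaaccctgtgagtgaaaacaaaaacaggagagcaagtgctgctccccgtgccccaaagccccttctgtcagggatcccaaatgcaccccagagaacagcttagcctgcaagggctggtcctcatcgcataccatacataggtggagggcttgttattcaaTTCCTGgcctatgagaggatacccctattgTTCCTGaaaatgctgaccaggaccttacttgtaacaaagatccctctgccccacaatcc
The Tek window held 2 matches, the Kdr window held 1 and the Flt1 window held 0 matches to these letters. At least 1 match was present in 35.1% of all 32851 RefSeq promoter windows of the same length, and 2 or more in 8.43%. A match is a description of the letters in this window and not a binding site. Promoter windows were matched for 8 of the 10 genes. Windows of other receptors are not shown. That of Tie1 has 212 of its 250 bases within an annotated exon, and that of Flt4 lies inside the annotated span of its gene.

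The libraries held 7141 to 9478 cells and 138647495 to 178279122 unique molecular identifiers (UMIs, each standing for 1 captured RNA molecule), and 6040 to 7956 cells per library were kept. Any 2 libraries shared 11 to 24 cell barcodes, at most 0.281% of the cells of either. Clustering without the 10 genes gave 33 clusters, of which 30 fell into 13 classes named "X-like" from marker genes, and 11 classes had at least 20 cells in every library. The numbers of cells per library were 1879 to 2392 for granulosa-like, 561 to 881 for theca-like, 2106 to 2943 for stroma-like, 533 to 907 for mural smooth muscle-like, 69 to 119 for mural pericyte-like, 54 to 161 for blood endothelial-like and 43 to 76 for lymphatic endothelial-like cells. UMIs of all 10 blood endothelial and all 5 lymphatic markers were found in their own class in every library. They were also found in granulosa-like and stroma-like cells, so this does not tell the classes apart. Per 1000000 UMIs, the 10 blood endothelial markers summed to 3741 to 4572 in blood and 3025 to 4023 in lymphatic endothelial-like cells, against 143 to 238 in pericyte-like cells. The 5 lymphatic markers summed to 18073 to 21326 in the lymphatic class and to 24.3 to 99.7 in the blood class. Unnamed clusters held 4.71% of the control cells, 7.33% with doxorubicin, 7.10% with doxorubicin and AMH and 9.43% with AMH. Levels below are UMIs of a gene per 1000000 UMIs of a class in a library (CPM), and a log2 ratio compares 2 such levels after adding 5 CPM to each.

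**Figure D1:**
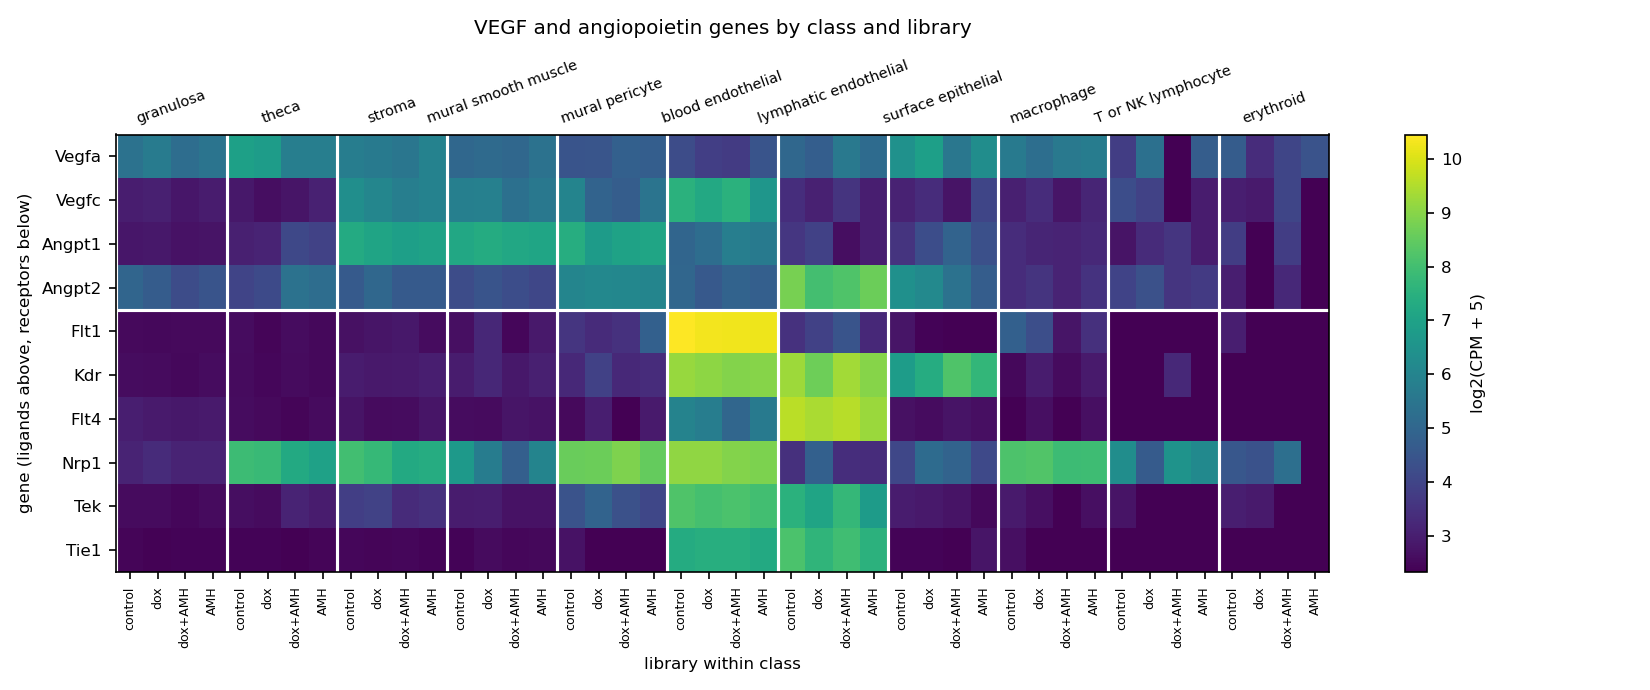
Heat map of log2(CPM + 5) for the 10 genes (rows, ligands above and receptors below the white line) in 11 classes, each split into the 4 libraries (columns). Flt1 is bright only in blood endothelial-like cells, and Flt4 and Angpt2 are brightest in lymphatic endothelial-like cells. Nrp1 is spread over blood endothelial, pericyte, stroma, theca and macrophage-like cells.

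Receptors and ligands were divided between classes in a way that was largely shared by the 4 libraries. For 7 of the 10 genes the same class had the highest level in all 4 libraries. The exceptions were Vegfa (theca-like or surface epithelial-like cells), Angpt1 (pericyte-like or smooth muscle-like cells) and Kdr (either endothelial class). These levels describe the classes and carry no test.

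Vegfa (ENSMUSG00000023951, chr17:46016993-46032369, minus strand of GRCm38) encodes the main VEGF ligand. In theca-like cells it stood at 118 CPM in the control library (exact 95% Poisson interval 114 to 123), 107 with doxorubicin (102 to 112), 50.6 with doxorubicin and AMH (47.1 to 54.2) and 50.5 with AMH (47.2 to 53.9). Both libraries without AMH were thus high and both with AMH low, with no overlap of the intervals. In granulosa-like cells the levels were 36.8, 46.8, 32.2 and 38.8 CPM in the same order of libraries (control, doxorubicin, doxorubicin+AMH, AMH), and in stroma-like cells 49.7, 44.9, 41.0 and 56.2 CPM. The range over the smaller surface epithelial-like class was 42.2 to 117 CPM. Blood endothelial-like cells had 8.40 to 16.5 CPM, within the 0 to 35.4 CPM of T or NK lymphocyte-like cells, so no expression is read from that level.

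The share of cells with a Vegfa UMI followed the level. After each cell was thinned to 2000 UMIs, 20.7% of theca-like cells had one in the control library, 20.9% with doxorubicin (exact binomial interval 17.5% to 24.6%), 9.27% with doxorubicin and AMH and 9.07% with AMH (7.25% to 11.2%). Before thinning the shares were 81.1%, 77.7%, 46.0% and 43.6%, at median depths of 20587, 24720, 14450 and 12820 UMIs per cell. Thinning left out 5 to 34 theca-like cells per library. In T or NK lymphocyte-like cells, at median depths of 5026 to 5900 UMIs, 0 of 64 thinned control cells had a Vegfa UMI. Read as up to 3 cells, this allows a share of 4.69%, and the exact binomial limit is 5.60%. The highest share was 4.35% (1 of 23 cells) with doxorubicin.

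Vegfc (ENSMUSG00000031520, chr8:54077606-54187096, plus strand), the lymphatic growth ligand, was highest in blood endothelial-like cells. It reached 178 CPM there in the control library, 147 with doxorubicin, 178 with doxorubicin and AMH and 91.8 with AMH. The AMH library alone lay below the others, with an interval of 80.0 to 105 against 133 to 205 over the other 3. Of the Vegfc UMIs of this class, the highest single cell gave 11.4% to 28.6% per library. Stroma-like cells had 50.4 to 75.3 CPM, smooth muscle-like cells 35.4 to 53.4 CPM and pericyte-like cells 21.4 to 58.6 CPM, while granulosa-like, theca-like and lymphatic endothelial-like cells stayed at 6.58 CPM or less.

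Angpt1 (ENSMUSG00000022309, chr15:42424723-42676977, minus strand), the TEK agonist, was highest in stroma-like, smooth muscle-like and pericyte-like cells. Whether the smooth muscle-like cells belong to vessel walls was not tested. The 6 pericyte markers summed there to 55.5 to 92.6 CPM, against 2351 to 3944 CPM in pericyte-like cells, and the 6 stroma markers to 2838 to 3328 CPM. Its levels were 151, 130, 115 and 122 CPM in stroma-like cells and 141, 156, 141 and 132 CPM in smooth muscle-like cells. Pericyte-like cells had 164 CPM in the control library (142 to 187), 106 with doxorubicin (87.0 to 128), 125 with doxorubicin and AMH and 132 with AMH. These 3 classes cannot be ordered, since their ranges over the libraries overlap. Blood endothelial-like cells had 26.7 to 51.3 CPM and granulosa-like cells 1.54 to 2.13 CPM.

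Angpt2 (ENSMUSG00000031465, chr8:18690263-18741562, minus strand), the context-dependent TEK ligand, was highest in lymphatic endothelial-like cells. It stood there at 438 CPM in the control library (412 to 466), 258 with doxorubicin (226 to 294), 290 with doxorubicin and AMH (256 to 327) and 390 with AMH (357 to 425). Both libraries with doxorubicin were thus below both without it. Pericyte-like cells had 60.1 to 64.1 CPM in every library, which is within counting error. Theca-like cells had 11.05, 12.9, 37.0 and 32.4 CPM, and granulosa-like cells 26.4, 20.7, 13.6 and 16.8 CPM. Angpt2 lies within the span of the antisense gene Mcph1, and Angpt1 overlaps the antisense gene Gm17473. How strand entered the counting is not given in the sources used here.

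**Figure D2:**
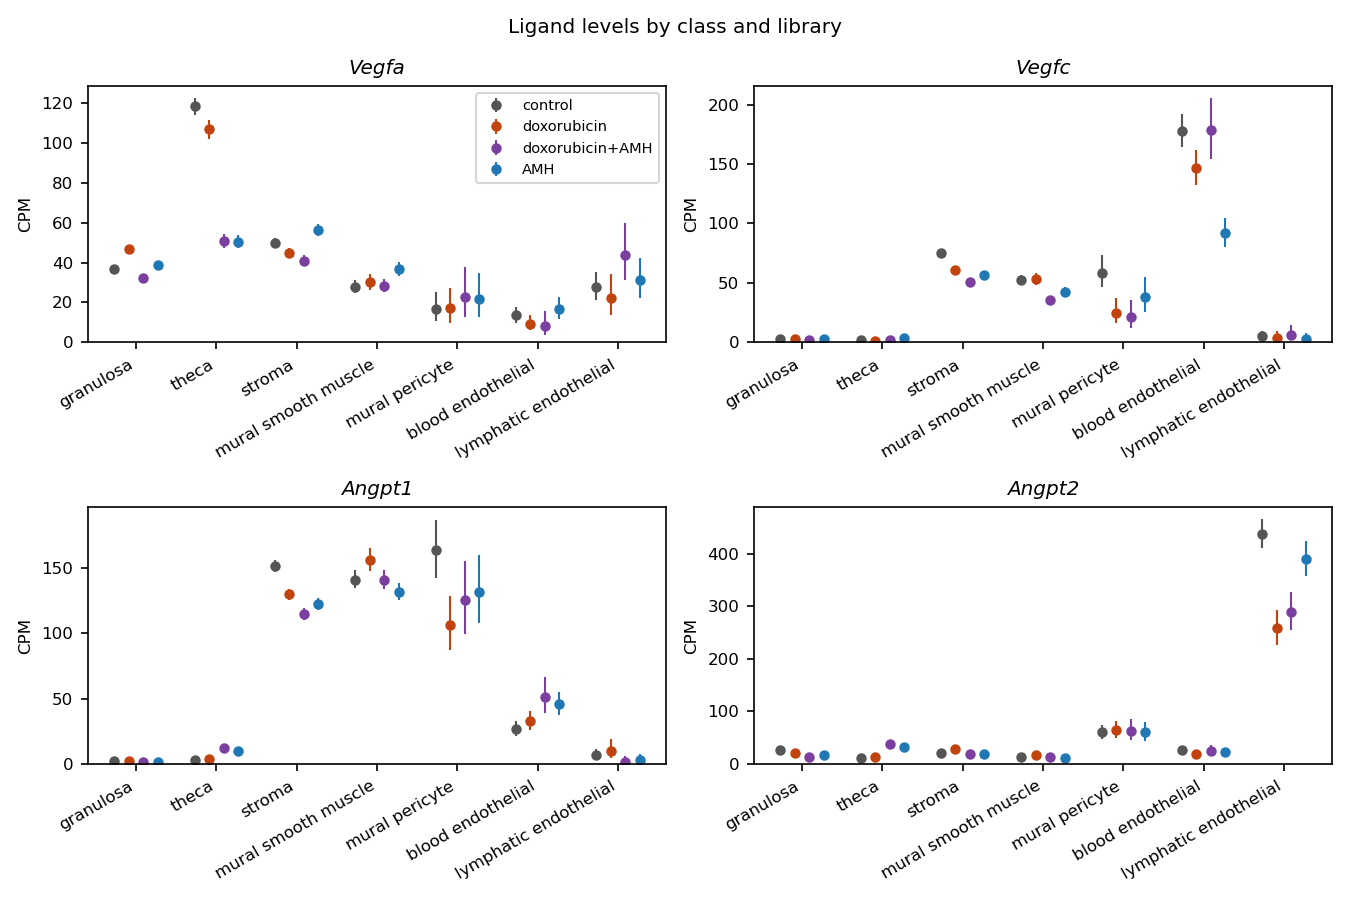
CPM of the 4 ligands (vertical axes, linear, from 0) in 7 classes, 1 point per library with its exact 95% Poisson interval. Vegfa in theca-like cells forms 2 separate pairs of libraries (107 to 118 CPM without AMH, 50.5 to 50.6 CPM with AMH), and Angpt2 stands highest in lymphatic endothelial-like cells.

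By number of molecules, the follicle and stroma supplied most of the ligand RNA. Theca-like cells gave 36.9% of all Vegfa UMIs of kept cells in the control library, 28.9% with doxorubicin, 17.6% with doxorubicin and AMH and 14.4% with AMH. Granulosa-like cells gave 29.3%, 40.4%, 44.8% and 46.0%, so the leading source of Vegfa was theca in the control library and granulosa in the other 3. Stroma-like cells gave 51.5% to 60.3% of Vegfc and 51.8% to 64.6% of Angpt1 UMIs. For Angpt2, granulosa-like cells gave 31.7% to 38.2% although lymphatic endothelial-like cells had the higher level, and the theca-like share was 6.07%, 7.48%, 21.5% and 16.8%. These shares also move with how many cells of each class were recovered.

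**Figure D3:**
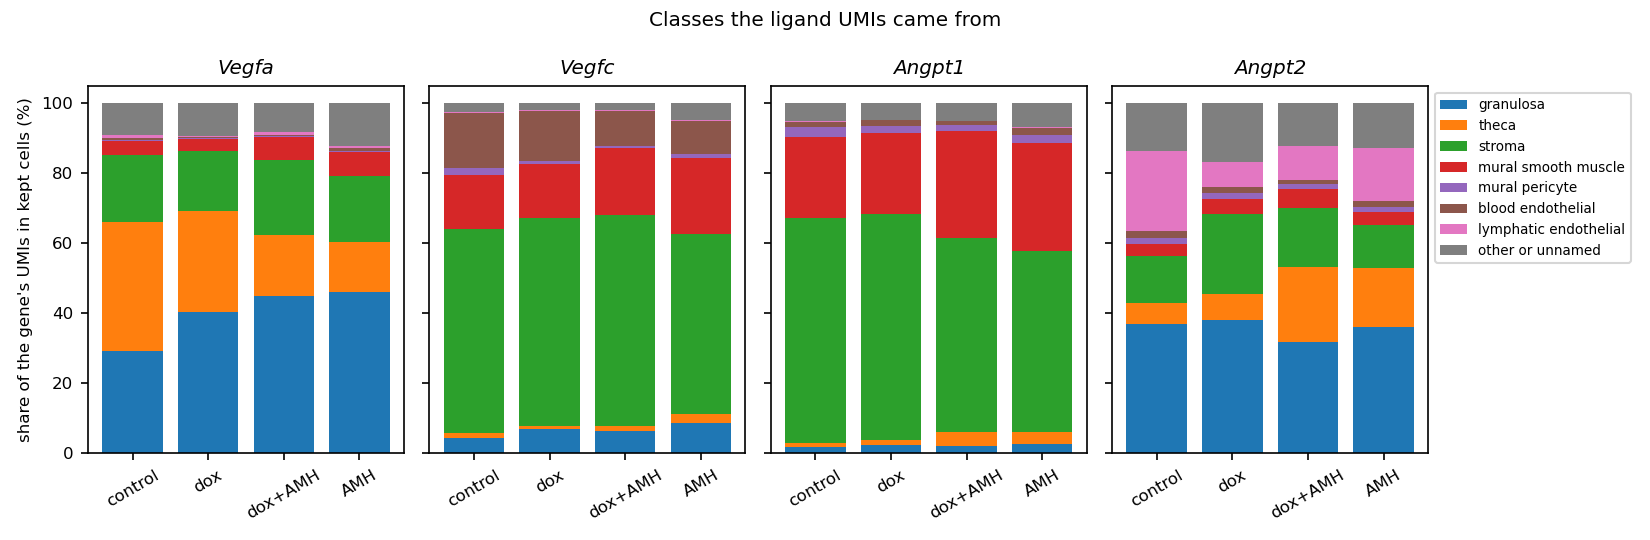
Share of each ligand's UMIs (vertical axis, percent of all its UMIs in kept cells) by class, with 1 stacked bar per library. The theca-like part of the Vegfa bars shrinks from 36.9% in the control library to 14.4% with AMH, while that of Angpt2 is 6.07% and 16.8% in these libraries.

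Flt1 (ENSMUSG00000029648, chr5:147561604-147726011, minus strand), the high-affinity VEGFA receptor that also acts as a decoy, marked blood endothelium. It stood in blood endothelial-like cells at 1401 CPM in the control library (1363 to 1441), 1256 with doxorubicin (1214 to 1299), 1239 with doxorubicin and AMH (1174 to 1308) and 1206 with AMH (1163 to 1252). The control library was the highest, and the 3 treated libraries had overlapping intervals. Blood endothelial-like cells gave 90.1% to 95.3% of all Flt1 UMIs. After thinning, 81.2% to 86.5% of these cells had a Flt1 UMI (98.8% of control cells and every cell of the other 3 libraries before). Among T or NK lymphocyte-like cells 0 of 64, 0 of 23, 0 of 57 and 0 of 41 had one. Read as up to 3 cells each, these allow shares of 4.69%, 13.0%, 5.26% and 7.32%. Lymphatic endothelial-like cells had 4.54 to 16.5 CPM.

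Kdr (ENSMUSG00000062960, chr5:75932827-75978458, minus strand), the main signalling receptor for VEGFA, was shared by both endothelial classes. Its levels in blood endothelial-like cells were 588, 534, 490 and 504 CPM, and in lymphatic endothelial-like cells 606, 396, 633 and 495 CPM. Surface epithelial-like cells, which do not line vessels, held 108, 159, 296 and 204 CPM, with a thinned share of 17.5% to 42.9% of cells. This class had 39 to 107 cells per library. Its clusters 26 and 30, pooled over the libraries, had 172 and 127 CPM of Kdr. They had 0.876 and 0.695 CPM of Flt1, 2.28 and 1.74 CPM of Tek and 0.701 and 0.348 CPM of Tie1. The 10 blood endothelial markers summed there to 183, 142, 166 and 189 CPM and the 6 stroma markers to 1908, 2522, 1446 and 4224 CPM, and the 5 erythroid markers reached 10409 CPM with doxorubicin and AMH. Their part in the Kdr level was not tested.

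Flt4 (ENSMUSG00000020357, chr11:49609263-49652739, plus strand), the VEGFC receptor, separated lymphatic from blood endothelium. It stood at 784 CPM in lymphatic endothelial-like cells of the control library, 680 with doxorubicin, 767 with doxorubicin and AMH and 600 with AMH. Blood endothelial-like cells had 57.0, 49.5, 27.1 and 44.8 CPM. Lymphatic marker genes summed to 24.3 to 99.7 CPM in blood endothelial-like cells and to 18073 CPM or more in the lymphatic class.

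Nrp1 (ENSMUSG00000025810, chr8:128358604-128503363, plus strand), the coreceptor, was found in endothelial and other classes. Blood endothelial-like cells had 550, 546, 493 and 457 CPM, and pericyte-like cells 381, 390, 465 and 364 CPM. It was also found in stroma-like cells at 252, 215, 147 and 159 CPM, in theca-like cells at 234, 221, 148 and 121 CPM and in macrophage-like cells at 233 to 302 CPM. Lymphatic endothelial-like cells had 5.29 to 23.3 CPM and granulosa-like cells 3.73 to 5.00 CPM. Because stroma-like and theca-like cells are many, they gave 36.9% to 41.7% and 23.7% to 30.7% of all Nrp1 UMIs, and blood endothelial-like cells 6.51% to 12.0%.

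Tek (ENSMUSG00000006386, chr4:94739289-94874976, plus strand), the angiopoietin receptor, stood in blood endothelial-like cells at 291, 259, 283 and 251 CPM and in lymphatic endothelial-like cells at 179, 129, 211 and 106 CPM. Tie1 (ENSMUSG00000033191, chr4:118471191-118490061, minus strand), its partner, stood at 157, 167, 166 and 148 CPM in blood and at 282, 196, 247 and 182 CPM in lymphatic endothelial-like cells. The blood endothelial levels of Tie1 had overlapping counting intervals in all 4 libraries. In the lymphatic class both genes were higher in the control and doxorubicin+AMH libraries than in the other 2.

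**Figure D4:**
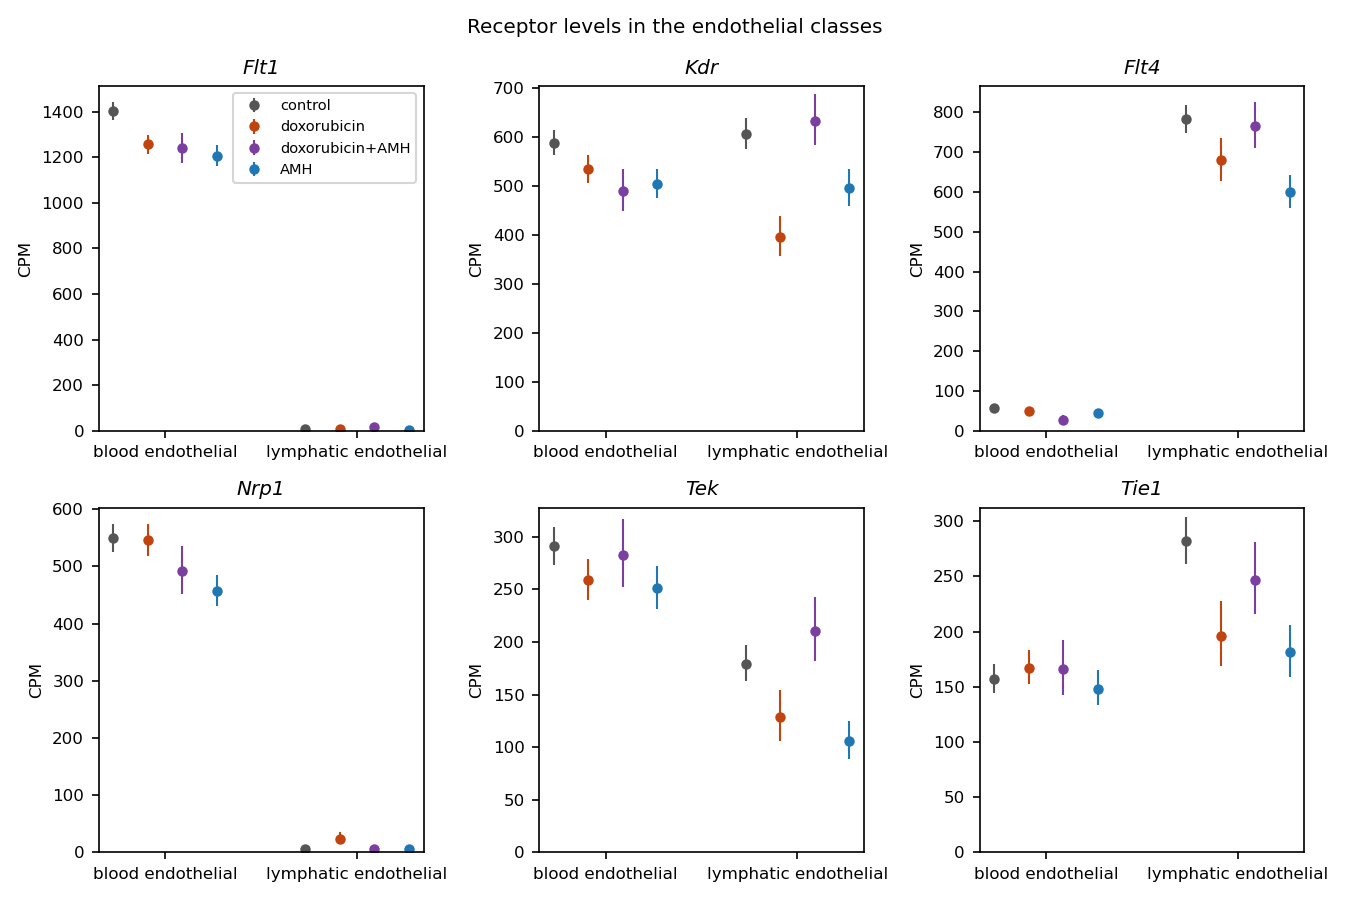
CPM of the 6 receptors (vertical axes, linear, from 0) in blood and lymphatic endothelial-like cells, 1 point per library with its exact 95% Poisson interval. Flt1 and Nrp1 are high in blood and low in lymphatic cells, Flt4 is the reverse, and in lymphatic cells Kdr, Tek and Tie1 are higher in the control and doxorubicin+AMH libraries.

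The first comparison asks what doxorubicin did without AMH. In the 7 classes whose cell numbers are given above, 32 pairs of gene and class had a mean of at least 20 CPM. Of these, 5 differed by at least 1.5-fold between the doxorubicin and control libraries, all of them lower. Of all gene and class pairs, 3.75% differed by that much. In blood endothelial-like cells 0 of 9 members did (background 1.90%), with log2 ratios from -0.41 for Angpt2 to 0.25 for Angpt1. Flt1 was 0.896-fold (0.858 to 0.937) and Nrp1 0.993-fold of control, so a 1.5-fold difference lies outside the counting intervals of these receptors. No theca-like, granulosa-like or stroma-like member passed 1.5-fold either (backgrounds 0.431%, 0.182% and 0.378%). Vegfa was 1.27-fold higher in granulosa-like cells (1.20 to 1.35). That class included clusters 27 and 31, which held 179 and 78 doxorubicin cells but 1 control cell each, and their part was not tested.

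The 5 pairs lay in pericyte-like, lymphatic endothelial-like and smooth muscle-like cells. In pericyte-like cells (background 6.98%) Vegfc was 2.34-fold lower with doxorubicin (1.47 to 3.83, from 77 and 25 UMIs) and Angpt1 1.54-fold lower (1.22 to 1.96). The Vegfc log2 ratio ranged from -1.76 to -0.85 over the alternatives run. In this class the erythroid markers summed to 28.2 CPM in control and 1126 CPM with doxorubicin, and the stroma markers to 1441 and 1180 CPM, and their part was not tested. The Angpt1 difference ended under 5 of the alternatives run, at log2 ratios of -0.57 to -0.51. The lymphatic class (background 13.5%) had Angpt2 1.70-fold lower (1.47 to 1.96) and Kdr 1.53-fold lower (1.36 to 1.72). With each cell weighted equally both were short of the limit, at -0.45 and -0.44. Nrp1 in smooth muscle-like cells (background 1.97%) was 2.08-fold lower (1.86 to 2.34), at 101 and 48.5 CPM. That last difference rested on cluster 17, led by Des, which held 206 control cells and 20 doxorubicin cells and had 277 and 50.7 CPM of Nrp1. In the other smooth muscle cluster, led by Acta2, Nrp1 stood at 42.6 and 48.4 CPM, and without the Des-led cluster the log2 ratio turned from -0.99 to 0.16.

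The same drug was compared in the presence of AMH, between libraries that the first comparison did not use. Here 5 of the 32 pairs passed 1.5-fold (background 5.26%). Blood endothelial-like cells (background 6.25%) had Vegfc 1.94-fold higher with doxorubicin and AMH than with AMH (1.59 to 2.37) and Flt4 1.66-fold lower (1.09 to 2.59, from 29 and 106 UMIs). With doublets left in both ended, at log2 ratios of 0.57 and -0.29. In this class of the AMH library the stroma markers summed to 579 CPM against 195 CPM with both agents, the macrophage markers to 203 against 24.3 CPM and the blood endothelial markers to 3741 against 4124 CPM, and their part in the Vegfc difference was not tested. Flt1, Kdr, Nrp1, Tek and Tie1 stayed between -0.04 and 0.17 on the log2 scale. In lymphatic endothelial-like cells (background 10.8%) Tek was 1.99-fold higher (1.59 to 2.49). Its log2 ratio ranged from 0.72 to 1.64 over the alternatives run. Nrp1 in smooth muscle-like cells (background 1.66%) was 2.65-fold lower (2.28 to 3.09), again with an uneven Des-led cluster of 55 and 184 cells, and in the Acta2-led cluster it stood at 21.1 and 26.5 CPM. With doublets left in this log2 ratio was -0.26. Vegfc in pericyte-like cells (background 15.1%), from 14 and 30 UMIs, had an interval that included no difference (1.80-fold lower, 0.925 to 3.67).

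AMH without the drug was compared with control to describe the hormone itself. Of the 32 pairs 9 passed 1.5-fold (background 6.78%), 7 lower and 2 higher. They included Vegfa, Nrp1 and Angpt2 in theca-like cells (background 14.6%), of which Angpt2 reached the filter only through the libraries with AMH. Vegfa was 2.34-fold lower (2.17 to 2.53), Nrp1 1.94-fold lower (1.84 to 2.04) and Angpt2 2.93-fold higher (2.54 to 3.39). The control level of Angpt2, 11.05 CPM, lies within the 7.01 to 15.2 CPM of T or NK lymphocyte-like cells. The fold of Angpt2 thus starts from a level at which no expression is read. In stroma-like cells (background 1.01%) Nrp1 was 1.58-fold lower (1.52 to 1.65), a difference that was short of the limit under 3 alternatives, at -0.58 to -0.55. In blood endothelial-like cells (background 6.15%) Vegfc was 1.94-fold lower (1.66 to 2.27) and Angpt1 1.71-fold higher (1.29 to 2.28). In blood endothelial-like cells the 6 pericyte markers summed to 455, 636, 714 and 664 CPM, in the same order of libraries as Angpt1, and the 6 stroma markers to 193, 259, 195 and 579 CPM. The AMH library also had the most macrophage RNA in this class, and the part of these in the Vegfc and Angpt1 levels was not tested. With doublets left in the Angpt1 log2 ratio was 0.47, short of the limit. The other passing pairs were Tek (1.69-fold lower) and Tie1 (1.55-fold lower, but -0.56 and short of the limit with median-of-ratios size factors) in lymphatic endothelial-like cells (background 10.2%) and Nrp1 in smooth muscle-like cells (1.71-fold lower, background 0.860%). Over the alternatives run, the log2 ratio ranged from -1.48 to -0.61 for Tek and from -1.46 to -0.56 for Tie1.

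With doxorubicin present, AMH was compared again between the remaining libraries, and 7 of the 32 pairs passed (background 7.19%). In theca-like cells (background 14.2%) Vegfa was 2.11-fold lower (1.94 to 2.30) and Angpt2 2.87-fold higher (2.46 to 3.35), close in size to the values without the drug. The Angpt2 level with doxorubicin, 12.9 CPM, again lies within the range of T or NK lymphocyte-like cells. Nrp1 had a log2 ratio of -0.57 in theca-like and -0.53 in stroma-like cells (background 1.17%), just short of the limit. Flt4 was 1.83-fold lower in blood endothelial-like cells (1.22 to 2.83, background 5.17%), and with doublets left in the log2 ratio was -0.41, short of the limit. The 5 lymphatic markers summed in this class to 27.8, 99.7, 24.3 and 41.9 CPM, also lower with both agents than with doxorubicin or AMH, and their part in the Flt4 level was not tested. Vegfc there was 1.21-fold higher (1.02 to 1.45), the opposite direction to AMH without the drug. Kdr, Tek and Vegfa were 1.60-fold, 1.64-fold and 1.98-fold higher in lymphatic endothelial-like cells (background 13.5%), the Vegfa value resting on 40 and 20 UMIs of which 55.0% and 30.0% came from single cells. The Vegfa level with doxorubicin, 22.2 CPM, lies within the range of T or NK lymphocyte-like cells, so no difference in expression is read from it. With each cell weighted equally these log2 ratios were 0.43, 0.088 and 0.23, below the limit. Nrp1 in smooth muscle-like cells was 2.17-fold lower (1.84 to 2.57, background 0.630%), and in the Acta2-led cluster it stood at 21.1 CPM against 48.4 CPM. With per-cell marker gates the log2 ratio was -0.38, short of the limit.

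The theca-like class had a different make-up with AMH, and the cluster values show how far the class values depend on it. Cluster 10, led by Cyp17a1 (androgen synthesis), numbered 654 cells in the control library, 420 with doxorubicin, 43 with both agents and 25 with AMH. Cluster 8, led by Prss35, held 34, 14, 546 and 743 cells, and cluster 16, led by Sct, held 130, 127, 117 and 113. The 6 theca markers summed to 10472, 10305, 3093 and 2781 CPM over the class, the 6 stroma markers to 368, 400, 904 and 902 CPM, the 6 granulosa markers to 521, 521, 271 and 291 CPM and the 4 Schwann cell markers to 8.71, 8.71, 73.1 and 86.8 CPM. Their part in the class values was not tested. Within cluster 10 Vegfa stood at 125, 113, 59.9 and 58.0 CPM, so the lower level with AMH was also seen among Cyp17a1-led cells. Cluster 16 had 78.3, 72.0, 71.0 and 64.7 CPM of Vegfa, with overlapping counting intervals between doxorubicin and doxorubicin+AMH.

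Angpt2 behaved differently within the clusters. It stood at 5.15, 5.67, 8.72 and 8.46 CPM in cluster 10 and at 40.6, 47.2, 35.0 and 26.2 CPM in cluster 16, where the AMH to control log2 ratio was -0.55. In cluster 8 it had 103 CPM in the 34 control cells, 40.1 CPM with doxorubicin and AMH and 35.5 CPM with AMH. The higher class level with AMH was seen together with more cells in cluster 8 and fewer in cluster 10, and in none of the 3 clusters was it as large. Nrp1 stood lower with AMH inside cluster 10 (244, 232, 190 and 120 CPM) and inside cluster 16 (172, 162, 145 and 141 CPM).

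**Figure D5:**
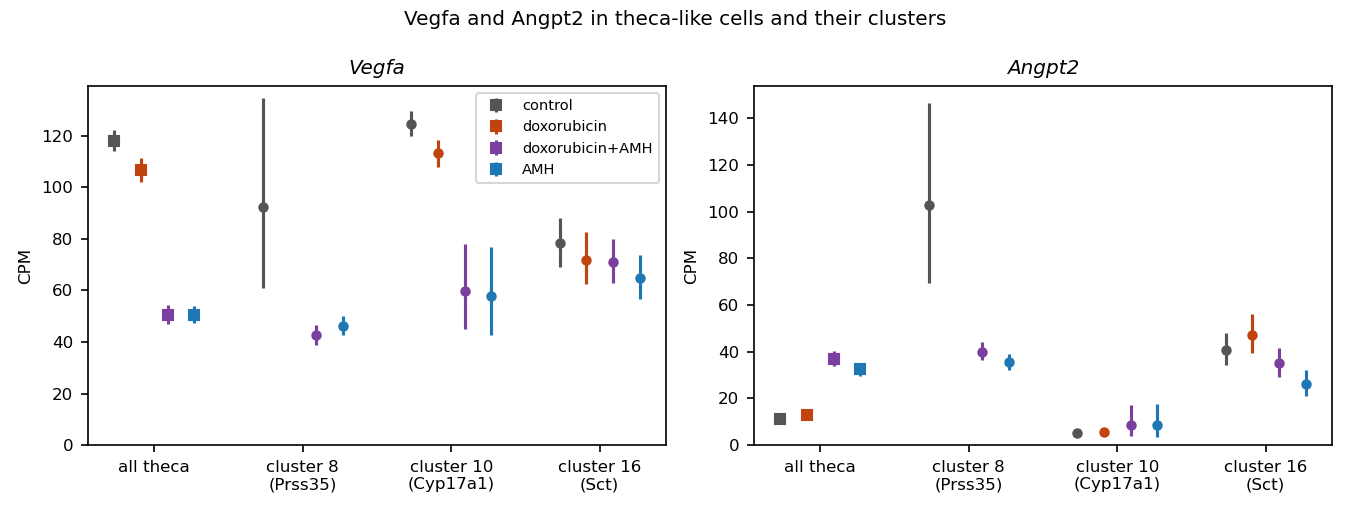
CPM of Vegfa (left) and Angpt2 (right) in all theca-like cells (squares) and in their 3 clusters (circles), 1 symbol per library with its exact 95% Poisson interval; clusters with under 20 cells in a library have no point. Vegfa is lower with AMH in cluster 10 as in the whole class, while Angpt2 is not higher with AMH in cluster 8 or 16.

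Clusters of other classes also differed in single genes. In granulosa cluster 11, led by Cdh12 and holding the markers Gatm and Kctd14, Vegfa stood at 47.0, 59.7, 24.5 and 23.3 CPM, while in cluster 4, led by Inhba, it stood at 47.4, 60.8, 41.6 and 47.4 CPM. In cluster 6, led by Ube2c, it stood at 37.3, 48.5, 32.1 and 47.9 CPM, and in cluster 7, led by Slc38a5, at 31.1, 43.1, 34.2 and 42.6 CPM. Against control, the level with AMH was thus lower in cluster 11, at 47.4 CPM in both libraries in cluster 4, and higher in clusters 6 and 7, while with doxorubicin present it was lower with AMH in these 4 clusters. Angpt2 in granulosa cluster 5, led by Shroom3, stood at 50.2, 32.7, 24.1 and 28.9 CPM. Nrp1 in the stroma cluster led by Lrat, a retinoid-storing enzyme, stood at 452, 382, 232 and 244 CPM, with an AMH to control log2 ratio of -0.88 and a doxorubicin+AMH to doxorubicin ratio of -0.70.

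In the lymphatic class, RNA of other cells moved with the receptor levels. The 6 granulosa markers summed to 88.1 CPM in the control library, 613 with doxorubicin, 269 with doxorubicin and AMH and 425 with AMH, thus lower in the control and doxorubicin+AMH libraries, where Kdr, Tek and Tie1 were higher. The 10 blood endothelial markers, of which several are pan-endothelial, summed to 4023, 3143, 3927 and 3025 CPM, higher in the same 2 libraries as Kdr, Tek and Tie1. The part of either in the receptor differences was not tested. In the doxorubicin+AMH library a single cell gave 23.4% of Kdr, 24.5% of Tek and 29.3% of Tie1 UMIs of this class.

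The rest of the pathway was described from 4 lists of 47 genes, of which 46 were measured. In blood endothelial-like cells 28 of them had at least 20 CPM on average. Of the 12 endothelial response genes tested there, 0 were higher and 1 was lower with doxorubicin (Rcan1, a calcineurin feedback gene induced by VEGF, log2 ratio -0.62), where 1.90% of all genes passed. Rcan1 stood at 25.8, 14.99, 29.9 and 23.7 CPM, so with AMH present it was not lower with doxorubicin. With AMH against control 0 were higher and 2 lower (background 6.15%). AMH on top of doxorubicin gave 1 higher (Rcan1) and 3 lower, Esm1, Apln and the transcription factor gene Hhex (background 5.17%), and doxorubicin with AMH against AMH gave 0 higher and 1 lower, Apln (background 6.25%). The 2 lower with AMH against control were Esm1, at 60.9, 45.0, 23.3 and 28.8 CPM, and Apln, at 38.7, 36.3, 7.47 and 19.9 CPM. Apln reached the 20 CPM filter only through the libraries without AMH. Esm1 and Apln were low in both AMH libraries, with log2 ratios of -0.96 and -0.81 without and -0.82 and -1.73 with doxorubicin. Dll4, on the same list, stood at 95.7, 84.7, 82.1 and 70.2 CPM, short of the limit. The median log2 ratio of the 12 genes was -0.31 for AMH against control and -0.14 for AMH on top of doxorubicin, beside -0.06 and -0.02 over all genes. The 10 blood endothelial markers summed to 4572, 4560, 4124 and 3741 CPM in this class, and their part in these medians was not tested. Thbs1, encoding the angiogenesis inhibitor thrombospondin 1, was high in the AMH library alone, at 22.4, 17.2, 30.8 and 70.2 CPM. In the same library and class the 6 macrophage markers summed to 203 CPM against 23.3 to 29.2 CPM in the other 3 and the stroma markers to 579 CPM, while the erythroid markers summed to 16.6, 1376, 17.7 and 388 CPM. The part of this other RNA in the Thbs1 level was not tested.

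Of the 4 angiogenesis inhibitors tested in theca-like cells, 2 were higher and 1 lower in each AMH comparison (backgrounds 14.6% and 14.2%). The lower gene, Col18a1, reached the filter only through the libraries without AMH. Thbs1 stood at 23.6, 26.5, 89.9 and 105 CPM, and Adamts1, a protease that binds VEGFA, at 86.7, 75.9, 201 and 175 CPM. Col18a1, the source of endostatin, stood at 35.6, 28.3, 14.4 and 10.6 CPM, and Plxnd1, a semaphorin receptor, at 47.1, 43.4, 22.1 and 17.6 CPM. Col18a1 was also lower with AMH in granulosa-like cells, at 48.2, 43.8, 20.8 and 30.3 CPM. In granulosa-like cells it was among the leading genes of cluster 11, which held 355, 312, 162 and 235 cells. The theca-like differences share the change in cluster make-up described for Vegfa.

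Of the oxygen sensing genes, 6 to 8 of 12 were tested in each of the 7 classes. Those that passed 1.5-fold in any of the 4 comparisons were Ndrg1 and Epas1, both lower with doxorubicin than in control in lymphatic endothelial-like cells (2 of 6 tested, background 13.5%). Ndrg1, a hypoxia-induced gene, stood there at 415, 244, 318 and 315 CPM and Epas1 at 152, 96.5, 98.8 and 116 CPM. Epas1, which encodes HIF2-alpha, had a log2 ratio of AMH to control of -0.41 in granulosa-like cells, at 133, 110, 95.4 and 99.1 CPM. In smooth muscle-like cells Vegfd, a further FLT4 ligand, stood at 38.5, 28.4, 19.4 and 32.4 CPM. Sema3a, a semaphorin that binds neuropilin 1, stood at 26.7, 1.503, 4.45 and 27.5 CPM in smooth muscle-like cells and at 24.2, 3.78, 11.4 and 20.6 CPM in stroma-like cells, low in both libraries with doxorubicin and, on average, below the 20 CPM filter in both classes. The Des-led smooth muscle cluster was also smaller in these libraries (20 and 55 cells, against 206 and 184). Oviduct epithelial-like cells were fewer there too (1 and 45 cells, against 141 and 242), so the libraries differed in the tissue recovered. The part of either in the Sema3a levels was not tested. Sema3a stood at 222, 112, 229 and 114 CPM in lymphatic endothelial-like cells, higher in the same 2 libraries as Tek and Tie1. Adamts1 there stood at 346, 120, 200 and 110 CPM.

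Some genes followed the members closely over the 44 sums of 11 classes and 4 libraries, which share libraries and depth. Pearson's r of log2(CPM + 5) among 7111 genes was highest for Gas6 and Fggy with Vegfa (0.81 and 0.80), Cxcl12 and Atp8b1 with Vegfc (0.91 and 0.86) and Bcr and Pard6g with Angpt2 (0.92 and 0.88). For the receptors the closest were Mecom and Ly6c1 with Flt1 (0.95 and 0.92), Ephb1 and Ccser1 with Kdr (0.98 and 0.96) and Klhl4 and Tll1 with Flt4 (0.99 and 0.95). Shank3 and Ushbp1 lay closest to Tek (0.97 and 0.96), and Myct1 and Cldn5, both known endothelial genes, to Tie1 (both 0.99). Nrp1, spread over many classes, had the lowest best match (Grm7, 0.75). These values describe distribution over classes.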

How the data were processed

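The deposited files hold raw UMI counts per gene and cell, made by the authors with Cell Ranger 7.0.0, per the file headers. The submitters' processing notes name mm10, R 4.2.0 and Seurat 4.1.0. The annotation and the use of introns and strand are not given in the sources used here. Libraries were made with a 3′ kit after enzymatic digestion, per the labels' protocols.

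A cell stayed in when it had 1000 UMIs or more, of which mitochondrial genes gave no more than 20%. Doublets were removed by the highest Scrublet scores, at 0.8% per 1000 cells, which took out 366 to 648 cells per library. Cells were clustered with scanpy 1.11.5 and leidenalg 0.10.2 (2000 variable genes without the 10 genes and the pathway lists, 30 components, 20 neighbours, resolution 1), with python 3.11.15. A cluster was named from at least 3 markers and 50% of a list. These naming limits were set after seeing the data. Rebuilt names may differ from the authors'.

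UMIs were summed per class and library and scaled to CPM. Ratios used a pseudocount of 5 CPM, a mean of at least 20 CPM and a limit of 1.5-fold. Counting intervals are exact at 95%, and a count of 0 was read as up to 3 counts. PCR duplicates are removed by UMIs, but cells of a library are not replicates. Pathway genes were named where they were among the 2 highest or 2 lowest log2 ratios in a class and comparison, or where their levels bear on a member, the latter chosen after their values were seen. The members and lists were chosen with earlier results of these data known. Likeness names the 2 genes with the highest Pearson's r. The likeness of Angpt1 is not reported here. Alternatives were another scaling, pseudocount, filter, fold limit and weight of cells, other limits on cells and doublets, and other ways to form classes. Scripts were tested on simulated data.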

Additional observations from a re-analysis of the deposited data

Results flagged for a closer look

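Some differences had opposite directions in comparisons that share no library, with counting intervals on both sides that excluded no difference; in each case the difference between the comparisons was not tested. For doxorubicin without and then with AMH, the log2 ratios were 0.31 and -0.24 for Vegfa in granulosa-like cells, -0.078 and 0.28 for Nrp1 in theca-like cells and -0.27 and 0.92 for Vegfc in blood endothelial-like cells. In lymphatic endothelial-like cells they were -0.61 and 0.35 for Kdr, -0.20 and 0.35 for Flt4, -0.46 and 0.96 for Tek and -0.51 and 0.43 for Tie1. For AMH without and then with doxorubicin, they were 0.16 and -0.12 for Vegfa in stroma-like cells and -0.92 and 0.27 for Vegfc in blood endothelial-like cells. In lymphatic endothelial-like cells they were -0.29 and 0.67 for Kdr, -0.38 and 0.17 for Flt4, -0.73 and 0.69 for Tek and -0.62 and 0.32 for Tie1.

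Unnamed clusters, which the comparisons do not use, also held members. Angpt2 reached 165 CPM in cluster 12, led by Unc5c, and Nrp1 reached 176 CPM in cluster 14, led by Mxd3, both over the pooled cells of 4 libraries.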

How the results depend on the processing

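No paired analysis was possible because each group has 1 library. Class means of 1 pooled library cannot separate a treatment from the library, and lymphatic, blood endothelial-like and pericyte-like values rest on 43 to 161 cells. The number of genes with the same highest class stayed at 7 under the alternatives run. The number of gene and class pairs past the limit moved as follows, and the cause was not tested unless the limit itself was changed. A limit of 2-fold left 1 pair for doxorubicin against control, 1 for doxorubicin with AMH against AMH, 2 for AMH against control and 2 for AMH on top of doxorubicin. Classes gated per cell on markers gave 8, 10, 14 and 11 pairs in the same order. Without the filter on low CPM, the second comparison gave 9 and the fourth 14 pairs. Median-of-ratios size factors gave 3 for the first, as did a mitochondrial limit of 10%. The log2 ratio of Vegfc in pericyte-like cells between doxorubicin with AMH and AMH turned from -0.72 to 0.083 with doublets left in, the cause being untested. Nrp1 in smooth muscle-like cells, doxorubicin against control, turned from -0.99 to 0.16 without clusters found mostly in some libraries, an alternative chosen after seeing the data. In theca-like cells Vegfa kept its direction over the alternatives run, at -1.28 to -0.93 for AMH against control and -1.19 to -0.72 with doxorubicin, as did Angpt2, at 0.98 to 1.47 and 0.87 to 1.56. Of the 26 pairs past the limit in any comparison, 12 moved beyond their counting interval with each cell weighted equally, 12 with marker gates and 10 with doublets left in.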
